A study of Rattus norvegicus with 16 samples.

Results

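Bcl2l1, Bax, Bok and Casp2 encode proteins that set the threshold for programmed cell death. They were read by 9 probe sets, short-oligonucleotide groups on an Affymetrix rat array, chosen as all probe sets whose single gene symbol in the platform annotation was one of these 4 names, out of 821 probe sets that singly named 549 genes. Bcl2l1 had 4 probe sets, Bax 1, Bok 2 and Casp2 2. 1 further probe set carried Bax together with another symbol, and it is not described because its gene is not settled. The genes were picked with earlier results of the drug comparison known, so their differences between drug and control are given as a description.

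The cells were NG108. The labels describe them as rat neuronal cells, and the line is known to derive from a fusion of mouse neuroblastoma with rat glioma cells. Control cultures received 0.25% dimethyl sulfoxide (DMSO) and treated cultures 4400 ng/ml mefloquine, an antimalarial drug, both over 2 hours, with 8 arrays in each group. Whether the drug was given in DMSO is not stated in the labels. Nothing states that the 8 samples of a group were separate cultures, so errors and p-values cover the spread between samples, which may be technical, and the probes are for rat sequence, so mouse transcripts of the hybrid may be read less well.

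Cell death through the mitochondrion is decided by the Bcl2 family. Survival members such as Bcl-xL, the long protein made from Bcl2l1, bind and hold the pore-forming members, and Bax and its relative Bok permeabilise the outer mitochondrial membrane when they are released or accumulate. Caspases are the proteases that carry the signal on. Casp2 encodes an initiator caspase that can act upstream of the mitochondrion. Bcl2l1 is also spliced to a short form, Bcl-xS, which promotes death. Which splice forms each Bcl2l1 probe set reads is not given in the sources used here.

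Median intensities of gene probe sets ran from 461 to 665 over the 16 arrays, and 26.9% of all values were at or below 0. A floor of 426.5 intensity units, the 25th percentile of all positive values, was therefore set before log2 was taken, and a probe set was tested where at least 8 of 16 arrays exceeded it, which 545 of 972 gene probe sets did. DMSO control 3 stood apart by its ratio of 3′ to 5′ signal, a measure of how complete the labelled RNA is, at 21.3 for beta-actin and 4.62 for GAPDH against 1.31 to 2.67 and 1.02 to 1.48 on the other arrays. Hybridisation spike-ins, bacterial control transcripts, were strongest on DMSO control 3 (mean log2 intensity 15.44), mefloquine 1 (15.09) and mefloquine 2 (14.88), against 13.16 to 14.40 on the other arrays. The arrays with replicate numbers 6 to 8 were also found earlier to differ from those numbered 1 to 5. The labels name no batch for these ranges. None of the 17 listed neuronal markers had a singly named probe set, so the neuronal label could not be checked. Of 14 glial markers 2 were measured, Vim and Clu, both above the floor on 16 of 16 arrays. Of 7 fibroblast and endothelial markers 2 were measured, with Col1a1 above the floor on 16 arrays and Col3a1 on 0, and of 7 immune markers none.

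Of the 9 probe sets, 8 passed the filter, and the dimmer Bok probe set was at the floor on all 16 arrays. In limma with Benjamini-Hochberg adjustment, 0 of these 8 were called different between mefloquine and DMSO at an adjusted p under 0.05, and 0 had an unadjusted p under 0.05. Over all tested probe sets 7 of 545 were called, or 1.28%, and 23, or 4.22%, had an unadjusted p under 0.05. In none of the 8 were the drug and control arrays fully apart, which occurred for 0.55% of tested probe sets. Their median log2 difference was -0.14, beside -0.01 over all tested probe sets. These shares say nothing particular about apoptosis genes, since the genes were picked from this comparison.

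Bcl2l1, the survival gene, had no common direction over its 4 probe sets, 1 of which was above 0 by more than its SE, 1 below by more than its SE and 2 within it. By S78284_s_at, the brightest, the lowest DMSO intensity was 282, the median 1283 and the highest 1394, and the lowest mefloquine intensity was 1007, the median 1335 and the highest 1716. The groups overlapped, with 4 mefloquine arrays above the highest DMSO array and 4 within the DMSO range. DMSO controls 3 and 5, at 385 and 282, were below the floor, while no mefloquine array was. The means were 1028 ± 461 and 1319 ± 254 (SD, n = 8 each), and the log2 difference, mefloquine minus DMSO, was 0.45 ± 0.27 (SE), with a 95% interval from -0.11 to 1.01. On the linear scale this is a 1.36-fold ratio with an interval from 0.924 to 2.01. Without the 3 arrays that stood apart the difference was 0.18 ± 0.26, and with the floor at the 40th percentile 0.21 ± 0.16.

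The direction of S78284_s_at turned between the replicate ranges. In replicates 1 to 5 its mean was 840 ± 501 in DMSO cells and 1428 ± 258 in mefloquine cells (SD, n = 5 each). In replicates 6 to 8 it was 1342 ± 71.9 in DMSO cells and 1137 ± 118 in mefloquine cells (SD, n = 3 each). All 3 mefloquine arrays (1007 to 1237) were below all 3 DMSO arrays (1260 to 1394). With 3 arrays on each side this can easily occur by chance, and its share over all tested probe sets was not counted. The log2 differences were 0.86 ± 0.35 and -0.24 ± 0.10 (SE). In limma's interaction test the change between the ranges was -1.10 ± 0.49 (SE), with an unadjusted p of 0.0396 and an adjusted p of 0.99. The interaction was called for 0 of 545 probe sets (0%), and 4.22% had an unadjusted p under 0.05.

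The second Bcl2l1 probe set, U72349_at, was the most variable of the 8, with a spread within groups of 0.84 (pooled SD, log2) that exceeded those of 94% of tested probe sets. In DMSO cells its lowest intensity was -1001, its median 1165 and its highest 2051, and in mefloquine cells -1283, 1060 and 2052. The groups covered nearly the same range. The low values came from the arrays with the strongest spike-ins: DMSO control 3 was at -1001, mefloquine 1 at -176 and mefloquine 2 at -1283, while each other array exceeded the floor. The log2 difference was -0.32 ± 0.39 (SE; 95% interval -1.14 to 0.50), and without those 3 arrays it was -0.16 ± 0.33. With the floor at the 10th or 40th percentile it was -0.51 ± 0.63 or -0.10 ± 0.25. Replicates 1 to 5 alone gave -0.69 and replicates 6 to 8 alone 0.29.

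By U72350_at, Bcl2l1 intensity in DMSO cells was 527 at its lowest, 687 at its median and 1338 at its highest, and in mefloquine cells -450, 484 and 1286. All 8 DMSO arrays exceeded the floor but only 5 mefloquine arrays did, and 5 mefloquine arrays were below the lowest DMSO array. Mefloquine 1 and 2, at -204 and -450, were again the lowest, whereas DMSO control 3 was the highest of its group. The log2 difference was -0.33 ± 0.26 (SE; 95% interval -0.88 to 0.23). Without the 3 arrays it was -0.04 ± 0.27, and with the floor at the 10th percentile -0.75 ± 0.41, so its size rests on how values below the floor are treated. In replicates 6 to 8 the means were 424 ± 110 in mefloquine cells and 666 ± 39.7 in DMSO cells (SD, n = 3 each). The 3 mefloquine arrays were all below the 3 DMSO arrays, which with so few arrays can easily occur by chance. How often this occurs over all tested probe sets was not counted. The log2 difference in this range was -0.52 ± 0.10 (SE). Part of these mefloquine values is below the floor of 426.5.

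The fourth Bcl2l1 probe set, U34963_s_at, differed by 0.01 ± 0.23 (log2, SE; 95% interval -0.47 to 0.49). Its lowest, median and highest intensities were 332, 550 and 1000 in DMSO cells and -301, 460 and 1004 in mefloquine cells. The groups overlapped widely, and 6 DMSO and 4 mefloquine arrays exceeded the floor. Mefloquine 1 and 2 were once more the lowest of their group. With the floor at the 10th percentile the difference was -0.38 ± 0.39, and with an offset in place of the floor -0.20 ± 0.22.

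**Figure D1:**
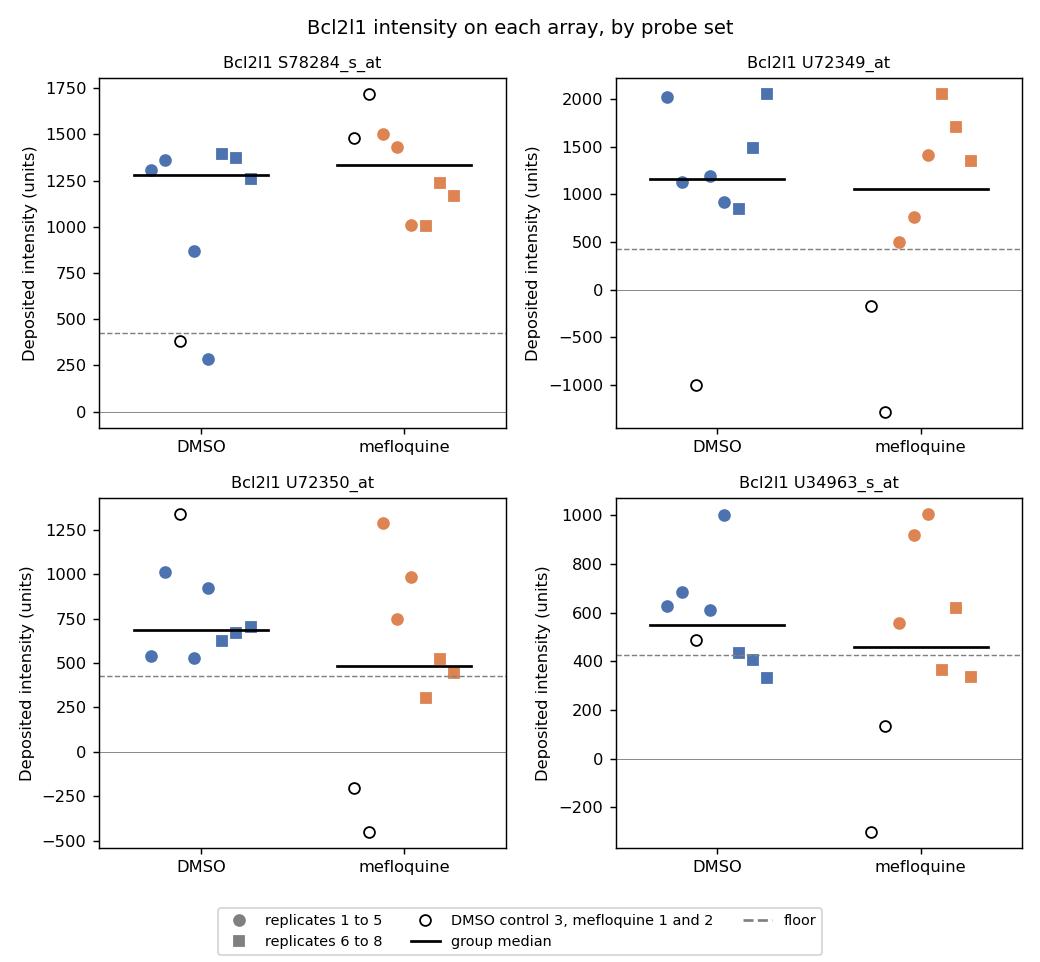
Deposited intensity (linear units, vertical axis) of each Bcl2l1 probe set on every array, by group, with circles for replicates 1 to 5, squares for replicates 6 to 8, open symbols for DMSO control 3 and mefloquine 1 and 2, black bars for group medians and a dashed line at the floor of 426.5. S78284_s_at is low on DMSO controls 3 and 5, while the open mefloquine symbols are the lowest in the other 3 panels.

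Bax, the pore-forming effector, had the smallest spread within groups of the 8 tested probe sets. Its probe set S76511_s_at gave a lowest intensity of 5294, a median of 5520 and a highest of 6727 in DMSO cells, and 4697, 5446 and 6776 in mefloquine cells. The groups overlapped, with 4 mefloquine arrays below the lowest DMSO array and 1 above the highest. The means were 5703 ± 485 and 5606 ± 777 (SD, n = 8 each), and on the log2 scale the difference was -0.03 ± 0.10 (SE). The 95% interval from -0.25 to 0.18 corresponds to a ratio between 0.842 and 1.14. That spread was 0.16 (pooled SD, log2), and only 5% of tested probe sets had a smaller one.

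The Bax difference had opposite signs in the replicate ranges, but the interaction did not pass. By range, in replicates 1 to 5 the means were 5813 ± 571 in DMSO cells and 5159 ± 432 in mefloquine cells (SD, n = 5 each), and in replicates 6 to 8 they were 5520 ± 300 and 6352 ± 635 (SD, n = 3 each). The log2 differences were -0.17 ± 0.14 and 0.20 ± 0.10 (SE). The interaction was 0.37 ± 0.19 (SE), with an unadjusted p of 0.0727 and an adjusted p of 0.99 in limma. DMSO control 3 was the highest DMSO array at 6727 and mefloquine 1 and 2 were the lowest mefloquine arrays at 4697 and 4931. These 3 arrays are all in replicates 1 to 5, and without them the difference over both ranges was 0.07 ± 0.09 (SE). RNA completeness and spike-in strength were both extreme on DMSO control 3, while on mefloquine 1 and 2 only the spike-ins were. The highest array of all for Bax, mefloquine 7 at 6776, had a mean spike-in log2 intensity of 13.60. Its 3′ to 5′ ratios were 1.36 for beta-actin and 1.02 for GAPDH. The part of these measures in the Bax values was not tested.

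Bok, the other pore-forming gene, was above the floor on every array by AF027954_g_at and on no array by AF027954_at. By the first, the lowest, median and highest intensities were 1991, 3401 and 4095 in DMSO cells and 3012, 3258 and 3710 in mefloquine cells. All 8 mefloquine arrays were within the DMSO range. The means were 3281 ± 670 and 3334 ± 267 (SD, n = 8 each). On the log2 scale the difference was 0.05 ± 0.13 (SE; 95% interval -0.23 to 0.33), or a ratio between 0.852 and 1.26. The lowest array was DMSO control 3 at 1991, and without it the difference was -0.05 ± 0.09. In replicates 1 to 5 the means were 3393 ± 843 and 3482 ± 223 (SD, n = 5 each), and replicates 6 to 8 had means of 3093 ± 260 in DMSO cells and 3088 ± 69.8 in mefloquine cells (SD, n = 3 each). The other probe set, AF027954_at, ran from -1544 to 180 in DMSO cells and from -568 to 135 in mefloquine cells, so it gives no more than a bound on Bok, and its lowest value was again on DMSO control 3.

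Casp2, the initiator caspase gene, had log2 differences below 0 by both of its probe sets, with intervals that included 0. By U77933_at the lowest, median and highest intensities were 41.6, 897 and 1502 in DMSO cells and -446, 676 and 1183 in mefloquine cells. The groups overlapped, with 7 of 8 mefloquine arrays within the DMSO range. The log2 difference was -0.26 ± 0.31 (SE; 95% interval -0.91 to 0.38). It turned to 0.08 ± 0.31 without DMSO control 3, the highest DMSO array at 1502, and mefloquine 1 and 2, the lowest mefloquine arrays at 107 and -446. With the floor at the 10th percentile it was -0.45 ± 0.54.

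By U34684_s_at the lowest, median and highest Casp2 intensities were -256, 605 and 853 in DMSO cells and 412, 481 and 710 in mefloquine cells. All 8 mefloquine arrays were within the DMSO range, but 7 of 8 were below the DMSO median. The lowest DMSO value was DMSO control 3 at -256, and 3 mefloquine arrays were just below the floor. The log2 difference was -0.24 ± 0.16 (SE; 95% interval -0.57 to 0.08), a ratio between 0.673 and 1.06. It depended on the treatment of dim values, being -0.07 ± 0.28 with the floor at the 10th percentile and -0.02 ± 0.18 with an offset in place of the floor. The linear means were 522 ± 337 and 505 ± 102 (SD, n = 8 each). The first range alone gave -0.25 and the second -0.24. Without the 3 arrays that stood apart it was -0.36 ± 0.16, with a 95% interval from -0.71 to -0.02. This unadjusted interval belongs to 1 of several ways of leaving out arrays, at 1 floor, and no call followed from it.

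**Figure D2:**
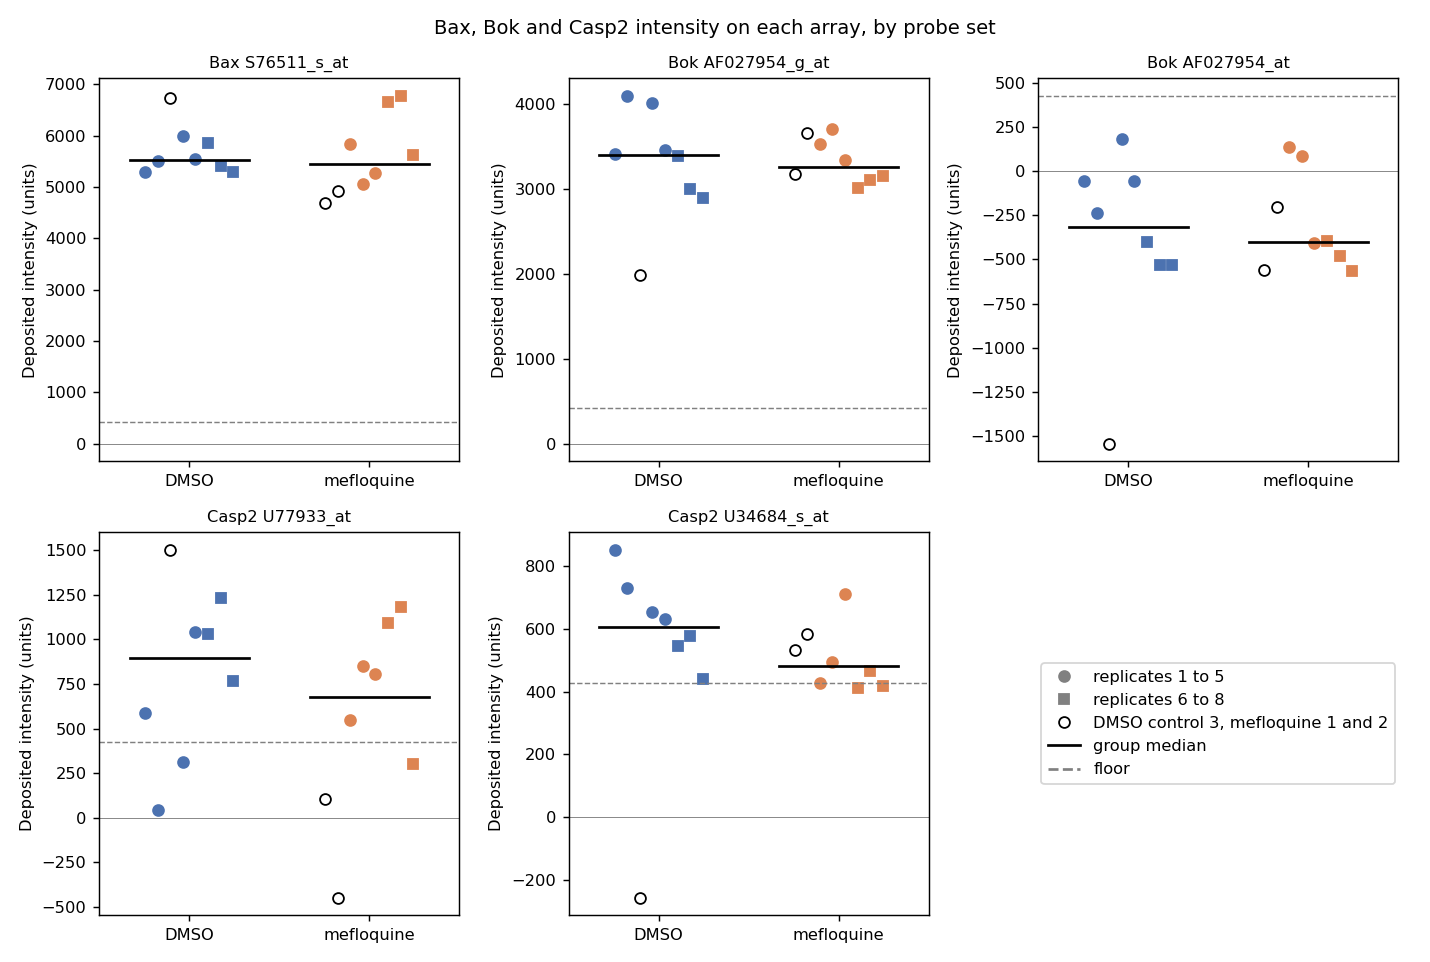
Deposited intensity (linear units, vertical axis) of the Bax, Bok and Casp2 probe sets on every array, by group, with circles for replicates 1 to 5, squares for replicates 6 to 8, open symbols for DMSO control 3 and mefloquine 1 and 2, black bars for group medians and a dashed line at the floor of 426.5. Bax and Bok AF027954_g_at are far above the floor on every array, Bok AF027954_at is below it on every array, and both Casp2 probe sets straddle it.

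The arrays that stood apart also stood at the ends of most readings. DMSO control 3 was the highest or the lowest DMSO array for 7 of the 9 probe sets, the lowest for 4 and the highest for 3. Mefloquine 1 and 2 were the 2 lowest mefloquine arrays for 5 of the 9. Without these arrays, which left 7 DMSO and 6 mefloquine arrays, 3 of the 8 tested probe sets turned in sign, namely Bax, Bok AF027954_g_at and Casp2 U77933_at. Between replicates 1 to 5 and 6 to 8, 4 had opposite signs, namely Bax and the Bcl2l1 probe sets S78284_s_at, U72349_at and U34963_s_at. The 95% interval over all arrays was within 2-fold in either direction for 6 of the 8, against 87.7% of all tested probe sets, but a floor narrows such intervals. With the floor at the 10th percentile it was within 2-fold for 3 of the 8 (Bax, Bok AF027954_g_at and Casp2 U34684_s_at), against 71.4% of those tested, so a 2-fold change in the others is not excluded. In cultures measured in bulk, a change in how many cells express a gene and a change per cell cannot be told apart.

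**Figure D3:**
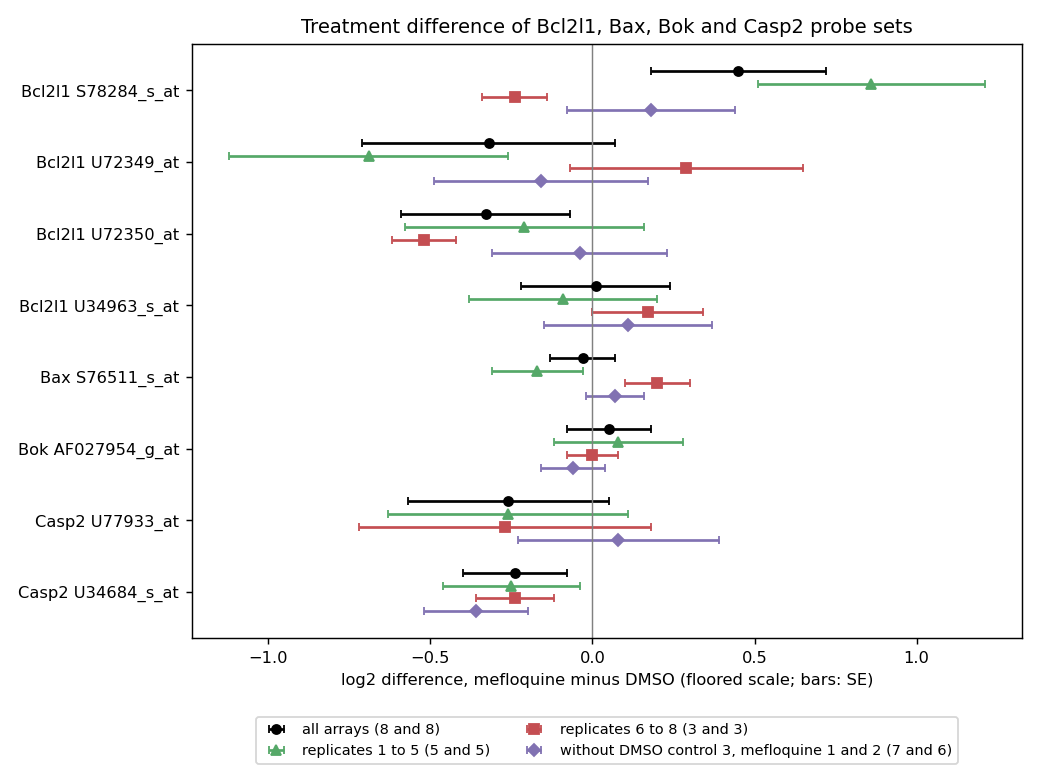
Log2 difference, mefloquine minus DMSO, on the floored scale (horizontal axis, bars are SE) for the 8 tested probe sets, over all arrays, in each replicate range and without DMSO control 3 and mefloquine 1 and 2. Bcl2l1 S78284_s_at is at 0.86 in the lower range and at -0.24 in the higher one, while Casp2 U34684_s_at is between -0.36 and -0.24 in all 4 at this floor (-0.07 over all arrays with the floor at the 10th percentile).

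The difference between the replicate ranges did not enter the choice of genes and was tested with treatment as a covariate. The ranges themselves were noticed in these same arrays, so p-values between them are a description and not an independent test. In limma 0 of the 8 probe sets were called between replicates 6 to 8 and 1 to 5, and 2 had an unadjusted p under 0.05. Over all tested probe sets 68 of 545 were called (12.5%) and 25% had an unadjusted p under 0.05. Bcl2l1 U72349_at had the largest difference, 0.93 ± 0.34 (log2, SE), from a mean of 549 ± 1062 in replicates 1 to 5 (SD, n = 10) to 1583 ± 460 in replicates 6 to 8 (SD, n = 6), with a limma adjusted p of 0.0908. All 6 arrays of the higher range exceeded the median of the lower range, and 2 of them exceeded its highest array. The values below the floor were on DMSO control 3 (-1001), mefloquine 1 (-176) and mefloquine 2 (-1283), all in replicates 1 to 5. Without these 3 arrays U72349_at was not called. Apart from leaving out 1 array, its difference ran from 0.43 to 1.42 in the alternatives. Over all settings its limma adjusted p ran from 0.0351 to 0.793.

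Bcl2l1 U34963_s_at went the other way, by -0.50 ± 0.20 (log2, SE; limma adjusted p = 0.134), and U72350_at differed by -0.45 ± 0.25 (limma adjusted p = 0.304). Without the 3 arrays that stood apart U34963_s_at differed by -0.74 with a limma adjusted p of 0.00744, and Bok AF027954_g_at by -0.23 with 0.0425, so that 2 of 8 were called where 20.6% of all tested probe sets were. 1 of 8 was called without DMSO control 1 or 6 (Bcl2l1 U72349_at; 12.8% and 10.5% of all tested) or 3 (Casp2 U34684_s_at; 16.7%), and 0 without any other single array. The probe sets of Bcl2l1 thus differed in sign between the ranges as they did between treatments.

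Probe sets of the same gene followed each other weakly or went in opposite directions across arrays. Among the 6 pairs of Bcl2l1 probe sets, 3 had a positive Pearson correlation of log2 values over the 16 arrays, and the highest was 0.46 for U72350_at with U34963_s_at (0.51 over the 13 arrays left without the 3 that stood apart). S78284_s_at had correlations of 0.06 with U72349_at, -0.42 with U72350_at and -0.33 with U34963_s_at. U72349_at was at -0.26 with U72350_at and at 0.09 with U34963_s_at (-0.64 and -0.30 without the 3). For S78284_s_at with U72349_at the value was 0.69 within DMSO arrays and -0.91 within mefloquine arrays, and DMSO control 3 and mefloquine 1 and 2 are at the floor for U72349_at. Without these 3 it was -0.03. The pair of Casp2 probe sets had a correlation of -0.29 (-0.21 without the 3).

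Between genes, the highest of all 28 correlations was 0.54, for Bax with Casp2 U77933_at, and the lowest -0.63, for Bok AF027954_g_at with Casp2 U77933_at. Without the 3 arrays they were 0.23 and -0.59. All these correlations are over arrays that share scaling and a replicate range, and they are given as a description.

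**Figure D4:**
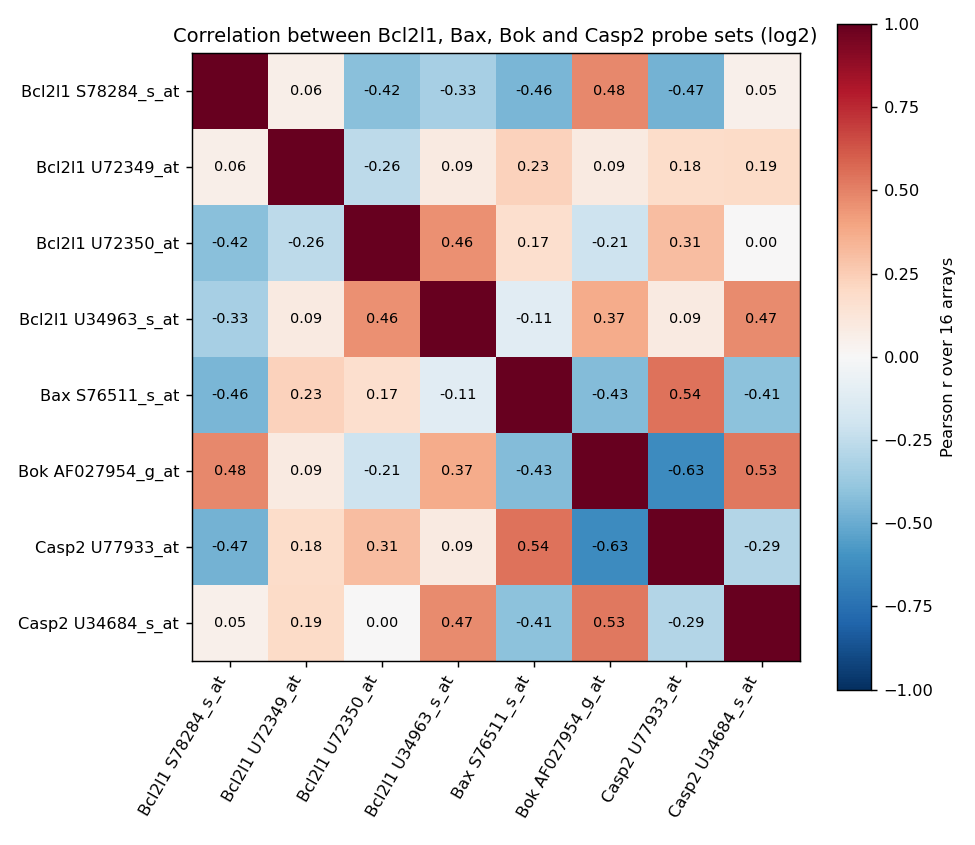
Pearson correlation (colour scale from -1 to 1, values printed) of floored log2 values over 16 arrays between each pair of the 8 tested Bcl2l1, Bax, Bok and Casp2 probe sets. Within Bcl2l1 the values run from -0.42 to 0.46, and the pair of Casp2 probe sets is at -0.29.

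Among 338 other genes, each by its brightest tested probe set, those most like each gene over the 16 arrays were named by Pearson correlation. Nearest to Bcl2l1 S78284_s_at were the sulfotransferase gene Sult1a1 (0.75), the chaperone gene Hspa8 (0.70) and the glycosyltransferase gene Mgat3 (0.70), which without the 3 arrays that stood apart were at 0.52, 0.30 and 0.67. Nearest to Bax were the MAP kinase kinase gene Map2k2 (0.79), the mitochondrial pyruvate carrier gene Mpc1 (0.78) and the chromatin factor gene Ssrp1 (0.77), at 0.54, 0.61 and 0.62 without those arrays. Bok had the closest neighbours, namely the immunophilin gene Fkbp1a (0.87), the collagen gene Col1a1 (0.86) and the small heat shock protein gene Hspb1 (0.85), at 0.69, 0.66 and 0.57. Nearest to Casp2 U77933_at were the growth factor receptor gene Fgfr1 (0.70), the chaperone gene Canx (0.65) and the DNA repair gene Apex1 (0.65), at 0.55, 0.34 and 0.46. Each of these correlations was lower without the 3 arrays. A fall is likely for genes picked as the highest over all 16 arrays, so it does not show what those 3 contributed.

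The rest of the pathway was covered thinly. Of 72 other genes in 9 apoptosis lists, 17 had a singly named probe set and 6 were tested. In limma 0 of the 6 rose and 0 fell with mefloquine, beside 1.28% called over all tested probe sets. Also, 0 had an unadjusted p under 0.05, beside 4.22% of all tested probe sets. By the brightest tested probe set of each gene the differences ran from -0.03 to 0.04 on the log2 scale, with a median of 0.01 beside -0.01 over all tested probe sets. Other tested probe sets of Mdm2 and Gadd45a differed by more. Among survival members of the Bcl2 family, Bcl2, the founding member, differed by -0.03 ± 0.43 (SE) by 1 of its 2 probe sets. The other, L14680_at, exceeded the floor on 0 arrays, and Bcl2l2 was at the floor on all arrays. Among the BH3-only genes, whose products release or activate the pore formers, Bcl2l11, which encodes Bim, differed by -0.00 ± 0.33. This was by 1 of its 4 probe sets, and the others exceeded the floor on 0 arrays. Bad was at the floor on all arrays. For Bcl2l11 the difference was 0.57 in the lower replicate range and -0.96 in the higher one, but its interaction did not pass (limma adjusted p = 0.983).

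Of the other caspases, Casp1 exceeded the floor on 0 arrays and Casp6, an effector caspase, on 3, so neither was tested. The inhibitor of apoptosis Birc2 and the kinase subunit Pik3r1 exceeded it on 0 arrays. Among death receptor genes, the neurotrophin receptor Ngfr differed by 0.02 ± 0.30 (log2, SE) and the ligand Faslg by 0.02 ± 0.31, while Fas exceeded the floor on 5 arrays and Tnfrsf1a and Tnfrsf1b on 0. In the p53 response, Mdm2, the ligase that degrades p53, differed by 0.04 ± 0.26 by its brightest probe set and by 0.45 ± 0.31 by AA875509_at. Gadd45a, a growth arrest gene, differed by -0.03 ± 0.47 by its brightest probe set, by 0.24 ± 0.13 by L32591mRNA_g_at and by 0.01 ± 0.15 by rc_AI070295_g_at, and none of these was called. Cdkn1a exceeded the floor on 4 arrays and Ccng1 on 0. No gene of the apoptosome list had a singly named probe set.

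Of these 6 genes, 2 differed between the replicate ranges by their brightest probe set, where 12.5% of all tested probe sets did. As above, the ranges came from these same arrays, so the p-values between them are a description. Bcl2 by L14680_g_at fell from 2261 ± 607 in replicates 1 to 5 (SD, n = 10) to 809 ± 747 in replicates 6 to 8 (SD, n = 6). The log2 difference was -1.37 ± 0.30 (SE, limma adjusted p = 0.00551). Its other probe set, L14680_at, exceeded the floor on 0 arrays, so a fall of the gene as a whole is not shown. By L14680_g_at all 6 arrays were below the lowest of the other 10. How often this occurs over all tested probe sets was not counted. Gadd45a by L32591mRNA_at fell from 1775 ± 676 to 478 ± 122 (SD, n = 10 and 6), also with all 6 arrays below the other 10, and its log2 difference was -1.80 ± 0.23 (SE; limma adjusted p = 3.38e-05). Its other tested probe sets were not called and differed by -0.07 ± 0.14 (L32591mRNA_g_at; limma adjusted p = 0.836) and 0.03 ± 0.15 (rc_AI070295_g_at; limma adjusted p = 0.907), so a fall of the gene as a whole is not shown. Without the 3 arrays that stood apart the limma adjusted p-values were 0.00961 and 1.07e-06. The Bcl2 difference was -1.70 within DMSO arrays (limma adjusted p = 0.0439) and -1.05 within mefloquine arrays, where it did not pass (limma adjusted p = 0.201). In its interaction test Bcl2 did not pass (limma adjusted p = 0.99).

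**Figure D5:**
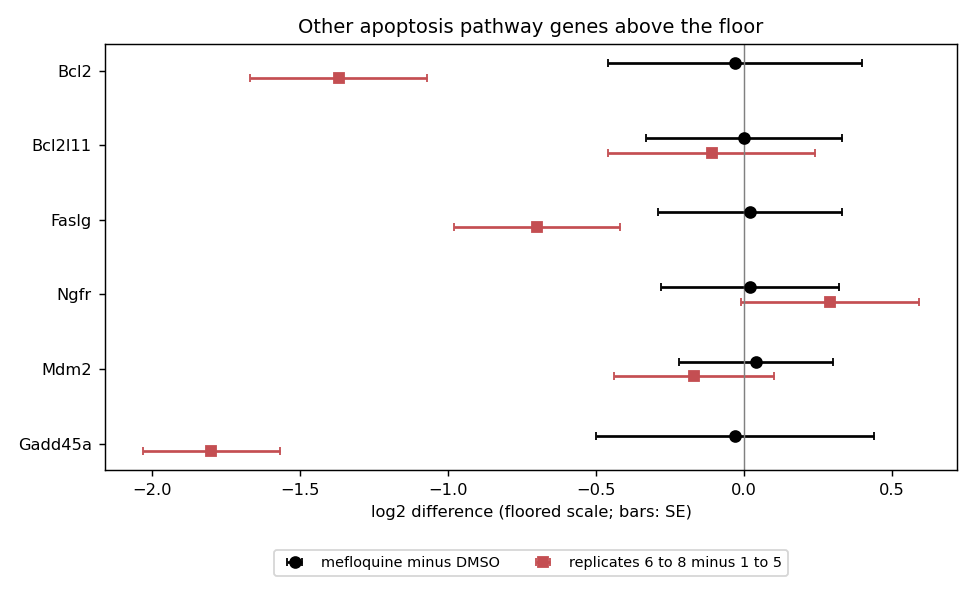
Log2 differences on the floored scale (horizontal axis, bars are SE) of the 6 other apoptosis pathway genes that were tested, between treatments (circles) and between replicate ranges (squares). Each gene is shown by its brightest tested probe set only: by these the treatment differences are between -0.03 and 0.04, and Bcl2 and Gadd45a are at -1.37 and -1.80 between the ranges, while other probe sets of Mdm2 (0.45 between treatments) and Gadd45a (-0.07 and 0.03 between ranges) are not drawn.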

How the data were processed

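Total RNA (10 µg per chip) was hybridised to 1 array per sample, per the labels. Each deposited value is a linear intensity that the authors had only scaled by chip, per the labels. The scanner software is not given in the sources used here. Groups and replicate numbers came from titles. At most 0.097% of values were identical between any 2 arrays, and 8 arrays per group limit the precision. Values below 426.5 (25th percentile of positive values) were set to it, log2 was taken, and probe sets above it on at least 8 of 16 arrays entered a fit with treatment as its only term (limma 3.58.1, functions lmFit and eBayes, R 4.3.3). Fold changes of dim probe sets on this scale depend on the floor and can be understated or enlarged. For Casp2 U34684_s_at the log2 difference was -0.24 here, but -0.07 with the floor at the 10th percentile. The range test added the range as a term and the interaction its product. P-values were adjusted (Benjamini-Hochberg) over all 545 tested probe sets. The genes, lists, ranges and left-out arrays were chosen with earlier results of these data known. Named by rule were all probe sets of the 4 genes, up to 4 genes of each list by p, and 3 genes most like each gene. Beyond that rule, listed genes that were not tested are named with how many arrays exceeded the floor, after their values were seen. The fits were tested on simulated data. Alternatives covered normalization, floor, filter, variance model, array weights, covariates, blocks, ranges and left-out arrays.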

Additional observations from a re-analysis of the deposited data

Results flagged for a closer look

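Each of the 8 tested probe sets and 3 quality measures was searched in both groups for an array far from its neighbours (Dixon's criterion, 22 searches, where chance gives about 1 in 20), and 2 were found. Both concern DMSO control 3, whose log2 ratio of 3′ to 5′ signal was 4.42 for beta-actin and 2.21 for GAPDH. Among the genes none passed on the floored log2 scale. The nearest there was Bok AF027954_g_at on the same array, with a gap of 0.52 of the group's range, just short of the criterion. This scale lifts low values to the floor, so the search could not show how far below it an array was. On DMSO control 3 the intensity was -256 for Casp2 U34684_s_at and -1001 for Bcl2l1 U72349_at. Gaps in intensity were not searched.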

How the results depend on the processing

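Under all 31 alternatives 0 probe sets of the 4 genes and 0 other listed apoptosis genes were called between treatments in limma. The count over all probe sets was 7 in the main setting and between 1 (replicates 6 to 8 alone) and 8 otherwise. Treatment differences moved by more than the spread between replicates only in replicates 6 to 8 alone, to -0.24 for Bcl2l1 S78284_s_at and 0.20 for Bax. With the replicate block the count was 0. Each number has an array in both groups, so this block cannot change a mean difference, and S78284_s_at stayed at 0.45 by design. Only the SE could change, from 0.27 to 0.24 for S78284_s_at and from 0.10 to 0.11 for Bax. It fell further for the dim probe sets. For Bcl2l1 it went from 0.26 to 0.18 (U72350_at), from 0.23 to 0.16 (U34963_s_at) and from 0.39 to 0.34 (U72349_at). For Casp2 it went from 0.31 to 0.23 (U77933_at) and from 0.16 to 0.12 (U34684_s_at). For Bok AF027954_g_at it stayed at 0.13. The numbers were not taken to pair samples, since the labels do not say that they do. Deviations from group means correlated above 0.1 in 7 of 8 same-numbered pairs. Replicates 5 to 8 were at 0.45, 0.51, 0.47 and 0.59, and the lowest pair was at 0.06. Only 2 of 8 DMSO arrays correlated best with their own number, so these values do not settle the pairing.

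Between ranges, the count of called probe sets of the 4 genes was 0 in the main setting, 1 with quantile normalization (Bcl2l1 U72349_at, 1.08), median scaling (U72349_at, 1.06) and the GAPDH ratio as covariate (Casp2 U34684_s_at, -0.34), 3 with array weights (Bcl2l1 U34963_s_at, -0.66, Bok AF027954_g_at, -0.22, and U34684_s_at, -0.34) and 2 without the 3 arrays that stood apart (-0.74 for U34963_s_at and -0.23 for AF027954_g_at). Over all tested probe sets the share called in these settings was 13.6%, 15.2%, 17.8%, 23.5% and 20.6%, in the same order. The sign turned for AF027954_g_at with median scaling (0.01), for Bax within DMSO arrays (-0.07) and for S78284_s_at within mefloquine arrays (-0.31). The cause was not tested. With 1 array left out the count ran from 0 to 1, U72349_at from 0.80 to 1.14 and U34684_s_at from -0.37 to -0.25. Over all probe sets 68 differed, and between 19 and 128 in the alternatives. A floor at the 40th percentile left 4 of the 9 probe sets, and a filter on all 16 arrays left 2. Dim signal limits Casp2 and the dimmer Bcl2l1 probe sets, where values near the floor have no order.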
